A study of Mus musculus with 15 samples.

Results

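*Tph1*, *Atp13a5*, *Ighm*, *Col6a6* and *Cuedc1* are 5 of the 30672 genes in a table of read counts from mouse tibialis anterior muscle, and were chosen by their fall in wild-type mice given tamoxifen, that is, by the counts of the WT + TAM and WT libraries. Genes were identified by Ensembl ID in the GRCm38 annotation (GENCODE M21). All 5 passed the filter on low counts, as did 15533 genes in all, and 20 of these (0.129%) were called lower with tamoxifen in wild-type mice, of 48 called in either direction (0.309%; edgeR, adjusted p under 0.05). By size of that fall, *Ighm* ranked 2, *Atp13a5* 4, *Tph1* 5, *Col6a6* 10 and *Cuedc1* 18 among the 20. Because this comparison chose the genes, its values are given as a description without a test, and the falls may be overstated by the choice.

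RNA was sequenced from the tibialis anterior, a muscle of the shin, in 15 males of strain 129Pas at an age of 7 weeks. The groups were untreated wild type (WT, 4 libraries), wild type with tamoxifen (WT + TAM, 4), untreated *Mtm1* knockout (Mtm1-/y, 4) and knockout with tamoxifen (Mtm1-/y + TAM, 3). The sources used here give no dose, route or length of the tamoxifen treatment. The question was whether genes lowered by tamoxifen in WT mice were already low in untreated mutants, and whether tamoxifen lowered them there too.

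Tamoxifen is a selective oestrogen receptor modulator, which binds the receptor and can block or activate it depending on the tissue. *Mtm1* encodes myotubularin, a phosphoinositide phosphatase, and its loss in male mice models X-linked myotubular myopathy, a disease of skeletal muscle. The 5 genes have unrelated roles, in serotonin synthesis (*Tph1*), ion or polyamine transport across membranes (*Atp13a5*), antibodies (*Ighm*), extracellular matrix (*Col6a6*) and ubiquitin binding (*Cuedc1*).

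Libraries held 18042558 to 45823277 counts. *Mtm1* itself measured 15.3 ± 0.294 CPM (counts scaled by library size and TMM factor) in WT (SD, n = 4), 16.3 ± 1.88 CPM in WT + TAM (SD, n = 4), 3.36 ± 0.338 CPM in Mtm1-/y (SD, n = 4) and 3.49 ± 0.381 CPM in Mtm1-/y + TAM (SD, n = 3). The 10 fast skeletal muscle genes (*Acta1*, *Ckm*, *Myh4* and others) summed to 146614 to 252099 CPM in each library. A pair of libraries stood apart. WT + TAM replicate 1 scored -73.1 on the third principal component, and its group ranged from 71.8 to 1397 summed CPM for 9 slow muscle genes. Mtm1-/y replicate 1 scored -69.1 on the second.

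*Tph1*, *Ighm* and *Col6a6* were already low in untreated mutants. *Tph1* and *Col6a6* were near the level reached in WT mice given tamoxifen. *Ighm* had a lower mean in untreated mutants (1.85 CPM) than in WT + TAM (4.57 CPM), with overlapping libraries. *Atp13a5* and *Cuedc1* were lower in both treated groups, while the untreated mutants overlapped WT. *Col6a6* was also lower in treated than in untreated mutants. None of these falls in mutants was called with all 15 libraries (edgeR adjusted p 0.855 for each). Per kilobase of exon, *Ighm* (32.1 CPM) and *Cuedc1* (25.3 CPM) had the highest mean levels in WT, followed by *Atp13a5* (3.59 CPM), *Col6a6* (1.03 CPM) and *Tph1* (0.975 CPM). All libraries are shown in the plot of levels by group.

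**Figure D1:**
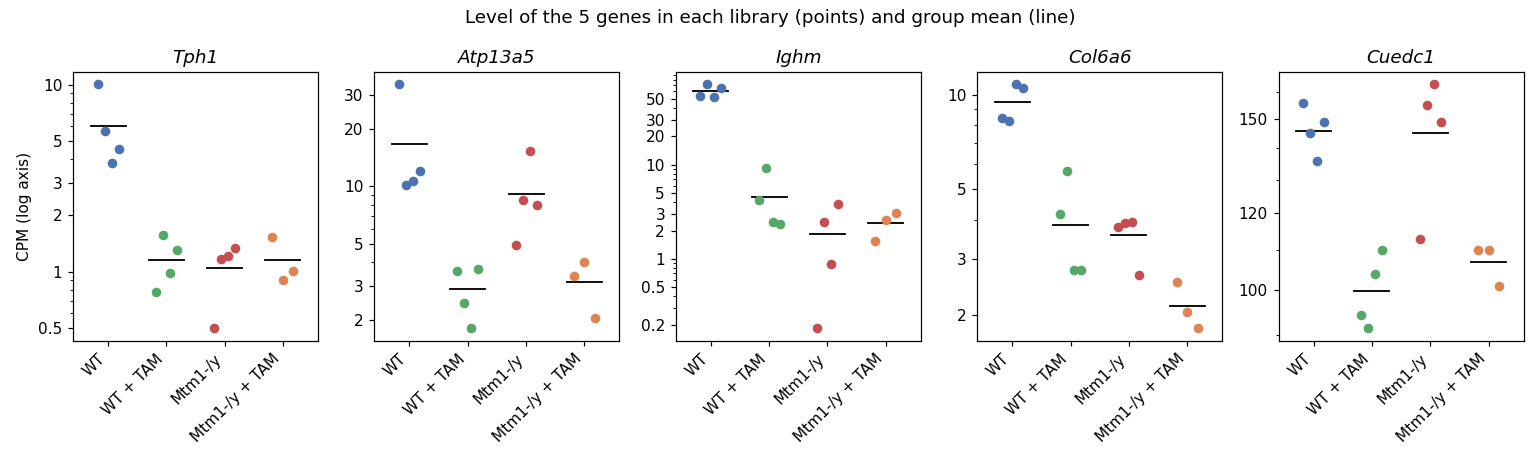
Level of each gene in CPM (log axis) for every library (points) and the group mean (line), by group. *Tph1*, *Ighm* and *Col6a6* have 1 high group, WT, whereas *Atp13a5* and *Cuedc1* have 2 higher groups, WT and Mtm1-/y.

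Because tamoxifen acts on the oestrogen receptor, the windows around the start of each gene were read for its response element (GGTCA, any 3 bases, then TGACC) and for the arm GGTCA alone, which the element contains. RefSeq promoters (GRCm38.p6, 250 bases before to 50 after the start) matched 4 of the 5 genes, all but *Ighm*, in 6 windows. The full element was in 0 of the 6 and in 0.07% of 32851 windows. The arm, on either strand, was in 3 of the 6 and in 40.5% of all windows. The 3 windows with it and that of *Atp13a5*, which lacks it, are given with the arm in capitals.

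Tph1 start 1, chr7:46672488-46672787, minus strand: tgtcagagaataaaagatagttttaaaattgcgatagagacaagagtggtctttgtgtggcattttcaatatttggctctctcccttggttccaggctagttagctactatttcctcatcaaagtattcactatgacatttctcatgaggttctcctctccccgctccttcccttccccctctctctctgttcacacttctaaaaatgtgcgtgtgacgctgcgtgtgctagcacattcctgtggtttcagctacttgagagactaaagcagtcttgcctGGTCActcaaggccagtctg

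Tph1 start 2, chr7:46667328-46667627, minus strand: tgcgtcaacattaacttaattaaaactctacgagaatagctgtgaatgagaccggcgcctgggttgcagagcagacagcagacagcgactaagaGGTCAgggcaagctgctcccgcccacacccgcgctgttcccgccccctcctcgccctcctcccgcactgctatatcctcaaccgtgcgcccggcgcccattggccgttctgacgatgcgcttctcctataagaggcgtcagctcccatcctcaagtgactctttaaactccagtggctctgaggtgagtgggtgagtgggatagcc

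Cuedc1 start 2, chr11:88169315-88169614, plus strand: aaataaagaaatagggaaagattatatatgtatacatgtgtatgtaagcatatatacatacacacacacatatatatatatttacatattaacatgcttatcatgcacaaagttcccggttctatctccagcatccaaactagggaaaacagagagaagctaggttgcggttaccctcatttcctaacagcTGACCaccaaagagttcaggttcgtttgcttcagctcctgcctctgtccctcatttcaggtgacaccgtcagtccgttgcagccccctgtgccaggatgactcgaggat

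Atp13a5, chr16:29378683-29378982, minus strand: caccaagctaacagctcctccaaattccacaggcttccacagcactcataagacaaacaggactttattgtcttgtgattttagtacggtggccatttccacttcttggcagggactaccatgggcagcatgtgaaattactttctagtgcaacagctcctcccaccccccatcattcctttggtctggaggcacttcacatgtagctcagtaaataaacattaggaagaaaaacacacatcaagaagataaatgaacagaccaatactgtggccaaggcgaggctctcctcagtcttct

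The arm began at position 31 after the first *Tph1* start, at position -156 from the second, and on the opposite strand at -59 from the *Cuedc1* start. Counts per gene do not say which start was used.

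*Tph1* (ENSMUSG00000040046, chromosome 7, 46644641 to 46672537, minus strand) encodes tryptophan hydroxylase 1, the rate-limiting enzyme of serotonin synthesis outside the brain. The 4 WT libraries held 10.1, 5.69, 3.81 and 4.52 CPM, and the 4 WT + TAM libraries held 0.777, 1.58, 0.989 and 1.3 CPM. Untreated mutants held 0.497, 1.17, 1.21 and 1.34 CPM, and treated mutants 1.54, 0.9 and 1.01 CPM. Every WT library was above every library of the other 3 groups, which overlapped each other, and WT replicate 1 was the highest of all. The mean was 6.02 ± 2.8 CPM in WT (SD, n = 4) against 1.16 ± 0.352 in WT + TAM (SD, n = 4). On the log2 scale the fold change was -2.39 (SE 0.35). Untreated mutants, at 1.05 ± 0.379 CPM (SD, n = 4), were lower than WT by a log2 fold change of -2.52 (SE 0.35, 95% interval -3.26 to -1.78). They differed from WT + TAM by -0.12 (95% interval -0.9 to 0.65). Counts were 19 to 60 in untreated mutants and 19 to 41 in WT + TAM, and this interval is wide.

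*Ighm* (ENSMUSG00000076617, chromosome 12, 113418558 to 113422730, minus strand) encodes the constant region of the IgM heavy chain, made by B cells. WT libraries held 53.1, 71.6, 52.4 and 65.4 CPM, and WT + TAM libraries 4.21, 9.28, 2.46 and 2.33 CPM. Untreated mutants held 0.183, 2.46, 0.89 and 3.85 CPM, and treated mutants 1.54, 2.59 and 3.1 CPM. The lowest WT library was far above the highest library of any other group (9.28 CPM), and the other 3 groups overlapped. Means were 60.6 ± 9.44 CPM in WT and 1.85 ± 1.64 CPM in untreated mutants (SD, n = 4 each). The log2 fold change was -3.77 (SE 0.62) for WT + TAM against WT and -5.02 (SE 0.66, 95% interval -6.45 to -3.59) for untreated mutants against WT. Untreated mutants against WT + TAM measured -1.25 (95% interval -2.62 to 0.12). That value was -0.67 without WT + TAM replicate 2 and -2.02 without Mtm1-/y replicate 4.

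*Col6a6* (ENSMUSG00000043719, chromosome 9, 105687809 to 105828160, minus strand) encodes the alpha 6 chain of collagen VI, which forms filaments around muscle fibres. WT libraries held 8.44, 8.22, 10.8 and 10.5 CPM, and WT + TAM libraries 4.17, 5.71, 2.77 and 2.78 CPM. Untreated mutants held 3.79, 3.91, 3.94 and 2.67 CPM, and treated mutants 2.54, 2.04 and 1.81 CPM. WT stood above the other 3 groups, and treated mutants were below every library of the other groups. The log2 fold change was -1.31 (SE 0.22) for WT + TAM against WT and -1.41 (SE 0.22, 95% interval -1.88 to -0.94) for untreated mutants against WT. Untreated mutants against WT + TAM measured -0.1 (95% interval -0.57 to 0.37). An unclassified transcript on the opposite strand, *Gm38314*, shares 63 exon bases with *Col6a6* and was not among the counted genes.

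*Atp13a5* (ENSMUSG00000048939, chromosome 16, 29231851 to 29378732, minus strand) encodes a P5-type ATPase, an ion or polyamine pump of the *Atp13a* family. WT libraries held 34.2, 10.2, 10.6 and 12.0 CPM, and WT + TAM libraries 3.6, 2.45, 1.81 and 3.7 CPM. Untreated mutants held 4.94, 8.47, 15.2 and 8.02 CPM, and treated mutants 3.39, 4.02 and 2.06 CPM. The untreated mutants overlapped WT and lay above both treated groups, which overlapped each other. The log2 fold change was -2.55 (SE 0.46) for WT + TAM against WT and -0.88 (SE 0.43, 95% interval -1.8 to 0.04) for untreated mutants against WT. Untreated mutants were 1.67 higher than WT + TAM on the log2 scale (95% interval 0.68 to 2.66). Without WT replicate 1, the highest library, the fall in WT was -1.93 and the mutant difference -0.26.

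*Cuedc1* (ENSMUSG00000018378, chromosome 11, 88098058 to 88194140, plus strand) encodes a protein with a CUE domain, a module that binds ubiquitin. WT libraries held 156, 145, 136 and 149 CPM, and WT + TAM libraries 94.3, 91.4, 104 and 110 CPM. Untreated mutants held 113, 155, 163 and 149 CPM, and treated mutants 110, 110 and 101 CPM. Untreated mutants overlapped WT and were above both treated groups, with Mtm1-/y replicate 1 the nearest to them. The log2 fold change was -0.55 (SE 0.11) for WT + TAM against WT and -0.02 (95% interval -0.24 to 0.21) for untreated mutants against WT. Untreated mutants were 0.53 higher than WT + TAM (95% interval 0.31 to 0.76).

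In WT + TAM, all 5 genes had no overlap with WT, where 3.86% of all tested genes were below WT in every library. The choice of genes by this fall favours such a result without requiring it. Untreated mutants were below WT in every library for 3 of the 5, against 15.7% of tested genes, and above every WT + TAM library for 2 of the 5, against 11.2%. Treated mutants were below WT in every library for 5 of the 5, against 20.2%, and below WT + TAM in every library for 1 of the 5, *Col6a6*, against 14.4%. Comparisons with WT and with WT + TAM share libraries with the one that chose the genes, so none was tested.

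Treated against untreated mutants shares no library with the comparison that chose the genes and is the only one tested for them. The genes were chosen with earlier results of these data known, so independence of this test from the choice is not established. None of the 5 genes was called (edgeR quasi-likelihood test, Benjamini-Hochberg adjusted p under 0.05), and none by DESeq2 or limma-voom. In all, 2 of the 15533 tested genes were called in this comparison (0.0129%). *Cuedc1* was lower by a log2 fold change of -0.43 (SE 0.12, edgeR adjusted p 0.855), *Col6a6* by -0.76 (SE 0.25, edgeR adjusted p 0.855) and *Atp13a5* by -1.54 (SE 0.5, edgeR adjusted p 0.855), and these 3 had unadjusted p under 0.05. Of all 15533 tested genes, 861 had edgeR unadjusted p under 0.05 in this comparison. *Tph1* measured 0.09 (SE 0.39, edgeR adjusted p 0.977) and *Ighm* 0.41 (SE 0.69, edgeR adjusted p 0.936). In fits without a library the *Ighm* value ran from 0.02 (without Mtm1-/y replicate 1) to 1.18 (without Mtm1-/y replicate 4). The 3 genes that were lower had no overlap between treated and untreated mutants, against 2.38% of tested genes. Without both of the libraries that stood apart, *Atp13a5* measured -1.75, *Col6a6* -0.73, *Ighm* 0.02 and *Tph1* -0.17, all uncalled. When WT + TAM replicate 1 and Mtm1-/y replicate 1 were both left out, *Cuedc1* measured -0.54 and was called (edgeR adjusted p 0.0374). In the other alternatives its adjusted p was above 0.05, and over all of them it ranged from 0.0374 to 1. A smaller effect in mutants than in WT was not tested.

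**Figure D2:**
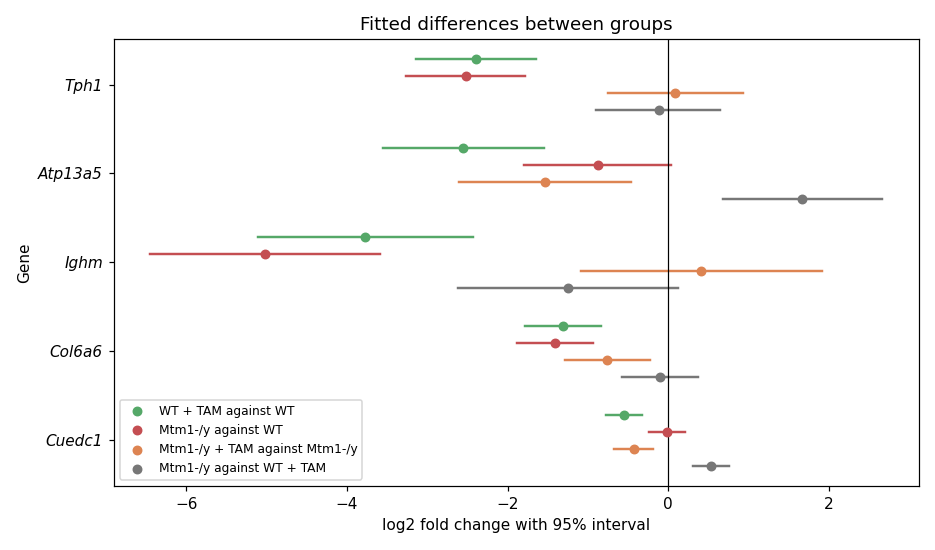
Fitted log2 fold change with 95% interval for each gene in 4 comparisons (legend). *Tph1*, *Ighm* and *Col6a6* have intervals below 0 for Mtm1-/y against WT, and *Atp13a5* and *Cuedc1* have intervals above 0 for Mtm1-/y against WT + TAM.

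Other genes of serotonin synthesis were not called by edgeR with tamoxifen. Over all pathway and marker lists, 99 listed genes other than the 5 were tested. None was called by edgeR with tamoxifen in either genotype. With tamoxifen in WT, 18 had unadjusted p under 0.05 and 7 were called by DESeq2, and in mutants the numbers were 11 and 0. Of all 15533 tested genes, 1757 in WT and 861 in mutants had edgeR unadjusted p under 0.05. Of 11 tested genes of serotonin synthesis and handling, *Ddc* and *Pcbd1* were higher in untreated mutants than in WT. *Ddc*, which makes serotonin from its precursor, rose by 2.42 (edgeR adjusted p 0.00113). *Pcbd1* rose by 3.14 (edgeR adjusted p 0.00176). Of 2 tested serotonin receptors, *Htr2a* was higher (0.94, edgeR adjusted p 0.0232) and *Htr7* lower (-0.7, edgeR adjusted p 0.0401) in the same comparison, where 30.4% of all tested genes were called. Mast cells make serotonin with *Tph1*. Of 8 tested mast cell genes, only *Kit*, also found in other cells, was lower in untreated mutants than in WT (-1.78, edgeR adjusted p 8.86e-05). The 12 mast cell genes summed to 14.3 to 20.9 CPM in WT and 16.5 to 20.5 CPM in WT + TAM. They summed to 10.4 to 23.9 CPM in Mtm1-/y and to 10.3 to 13.4 CPM in Mtm1-/y + TAM, below every WT library. The highest of the 12, *Gata2* and *Kit*, averaged 7.47 and 5.75 CPM in WT and 5.91 and 2.12 in Mtm1-/y + TAM. *Cpa3*, *Cma1*, *Mcpt4*, *Tpsb2* and *Tpsab1* averaged 0.631, 0.532, 0.607, 1.05 and 0.488 CPM in WT. In Mtm1-/y + TAM they averaged 0.613, 0.45, 0.654, 1.24 and 0.462 CPM. The part of mast cell genes in *Tph1* was not tested.

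*Ighm* was far above the light chain genes with which its protein pairs. The light chain constant genes held 20 to 44 counts in WT, where *Ighm* held 1183 to 2229. *Ighm* counts per light chain count were 108, 47.7, 26.9 and 53.1 in WT and 14.7, 3.25, 1.03 and 0.938 in WT + TAM. They were 0.636, 3.59, 5.6 and 3.58 in untreated mutants and 9.67, 2.72 and 3.0 in treated mutants. Every WT library was above every other library in this ratio. Its numerator is the *Ighm* count, whose fall in WT + TAM chose the gene, so the ratio is only a description. Heavy chain V, D and J segments summed to 2 to 10 counts in WT over 56 segments, and 1 to 25 in WT + TAM. Of 12 B cell markers only *Cd79b* was tested, and *Cd79a* and *Ms4a1* held at most 7 and 6 counts in any library. The 12 markers summed to 1.11 to 1.55 CPM in WT, 0.531 to 1.43 in WT + TAM, 0.445 to 1.23 in Mtm1-/y and 0.741 to 1.28 in Mtm1-/y + TAM. The part of these markers in the *Ighm* difference was not tested. Fewer B cells and less RNA per cell cannot be told apart in whole muscle. Of 5 tested plasma cell genes only *Prdm1* was lower in untreated mutants than in WT (-1.8, edgeR adjusted p 0.00401), where 30.4% of all tested genes were called. With tamoxifen in WT, *Prdm1* measured -0.97 (edgeR adjusted p 0.356), and the 5 plasma cell genes had a median of 0.31. Of 4 other tested immunoglobulin and J chain genes, none was called by edgeR in the 4 comparisons, and DESeq2 called 1 in treated mutants against WT + TAM. They had a median log2 fold change of 0.47 with tamoxifen in WT and -0.9 in untreated mutants against WT. The 12 T cell genes were under the filter, at 0.35 to 1.28 summed CPM.

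**Figure D3:**
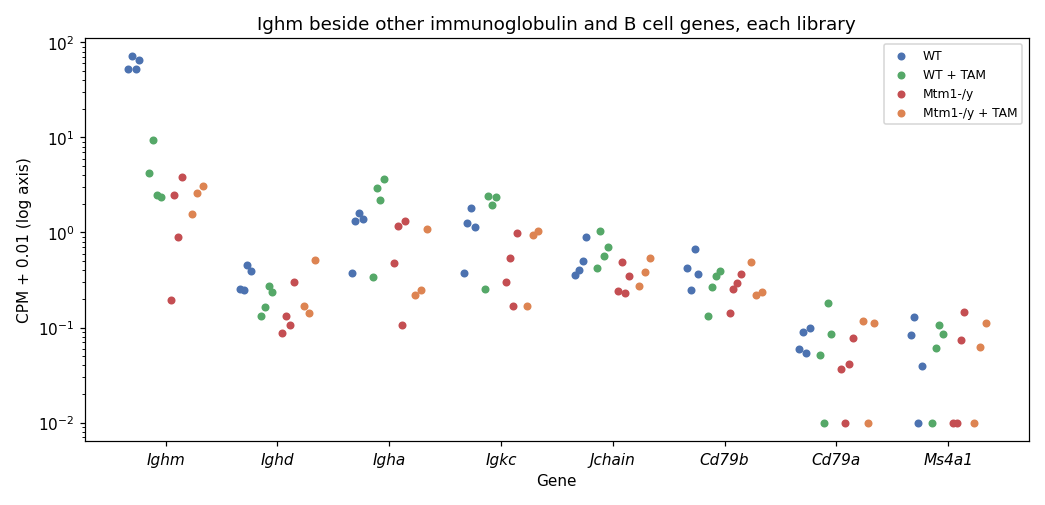
CPM plus 0.01 (log axis) of *Ighm* and of other immunoglobulin and B cell genes in every library, coloured by group. *Ighm* in the 4 WT libraries is at 52.4 to 71.6 CPM, and the other genes shown reach at most 3.62 CPM.

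None of the other collagen VI chains was called by edgeR. *Col6a1* averaged 108, 116, 77.2 and 113 CPM in WT, WT + TAM, Mtm1-/y and Mtm1-/y + TAM, and *Col6a2* 110, 107, 71.9 and 101 CPM in the same order. None of the 4 tested chains had an edgeR adjusted p under 0.377 in any of the 4 comparisons, which include treated mutants against WT + TAM (20.1% of all tested genes called). *Col6a5*, the neighbouring chain, held 0 to 20 counts and measured -1.94 (edgeR adjusted p 0.47) with tamoxifen in WT and -1.78 (edgeR adjusted p 0.855) in mutants. Of 10 tested partners and receptors, *Itga1* was lower in untreated mutants (-1.07, edgeR adjusted p 0.000231) and *Cspg4* and *Itgb1* were higher. Fibroblasts make collagen VI, and of 12 fibroblast genes 2 were higher (*Pdgfra*, *Gsn*) and 2 lower (*Dpp4*, *Cd34*) in untreated mutants than in WT, where 30.4% of all tested genes were called.

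The other P5-type ATPases were not called by edgeR or DESeq2 with tamoxifen. Of 4 tested, *Atp13a1* (0.39), *Atp13a3* (1.04) and *Atp13a4* (3.83, near-zero counts) were higher in untreated mutants than in WT. *Atp13a5* is expressed in pericytes of the brain. Of 12 pericyte and smooth muscle genes, 7 were lower and *Cspg4* higher in untreated mutants than in WT, where 30.4% of all tested genes were called. None was called by edgeR or DESeq2 with tamoxifen. Their sum was 959 to 1118 CPM in WT, 874 to 1013 in WT + TAM, 640 to 786 in Mtm1-/y and 592 to 684 in Mtm1-/y + TAM.

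Of 8 other CUE domain genes none was called by edgeR with tamoxifen, and DESeq2 called 1 of them in WT. *Tab2*, a signalling adaptor, was lower in untreated mutants (-0.88, edgeR adjusted p 8.64e-05), and *Aup1* and *Ascc2* were higher, 3 of 8 where 30.4% of all tested genes were called. Of 3 tested oestrogen receptor and target genes none was called by edgeR or DESeq2 with tamoxifen, and *Esr1* (-0.7, edgeR adjusted p 0.00176) and *Greb1* (-1.01, edgeR adjusted p 0.00716) were lower in untreated mutants. *Pgr*, a target gene of the receptor, was under the filter and not tested, with 2, 0, 0 and 0 counts in WT against 5, 17, 7 and 7 in WT + TAM. It had 0 counts in all 4 Mtm1-/y libraries and 0, 7 and 5 in Mtm1-/y + TAM. Of the muscle lists, 2 of 10 fast genes (*Acta1*, *Tnnt3*) and 1 of 9 slow genes (*Myl3*) were lower in untreated mutants than in WT, where 30.4% of all tested genes were called. With tamoxifen in WT, the comparison that chose the 5 genes, all 9 slow genes had log2 fold changes above 0 (0.67 to 5.64, median 3.39). None was called by edgeR, 7 had unadjusted p under 0.05 and DESeq2 called 5. Of all 15533 tested genes, 1757 had edgeR unadjusted p under 0.05 there. The slow genes summed to 88.2 to 113 CPM in WT and 71.8 to 1397 CPM in WT + TAM, so the rise was uneven between libraries. In WT + TAM, *Myh7* averaged 112 CPM (SD 218, n = 4) and *Myl2* 72.6 CPM (SD 133, n = 4). The SD was also above the mean for *Tnnt1*, *Tnni1*, *Tnnc1* and *Tpm3*, and below it for *Myh7b*, *Myl3* and *Atp2a2*. The part of the slow genes in the 5 genes' values was not tested.

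**Figure D4:**
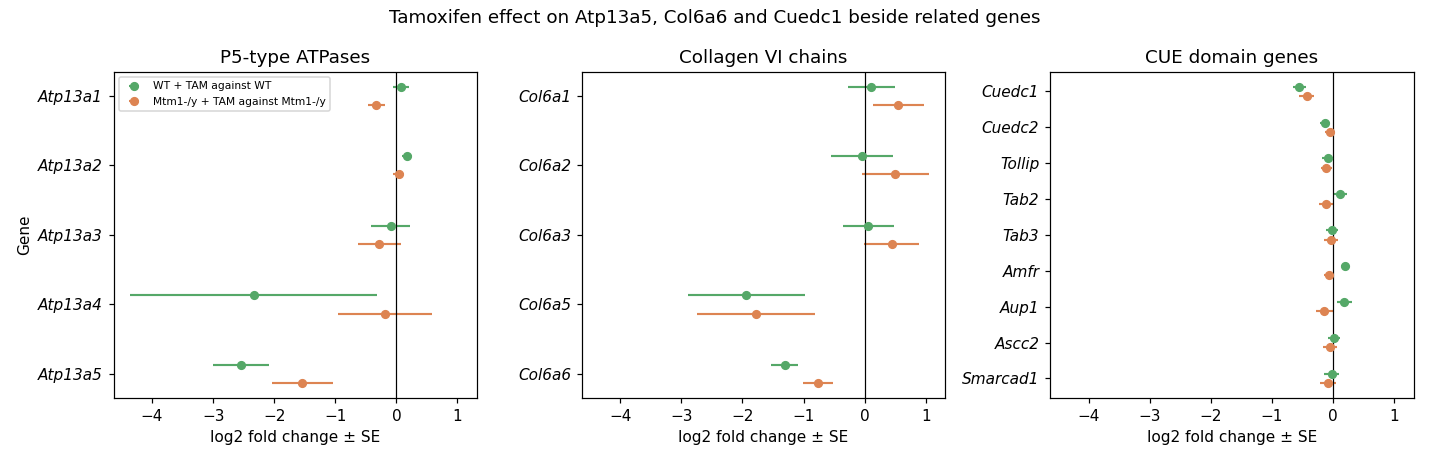
Log2 fold change with tamoxifen ± SE in WT (green) and in mutants (orange) for *Atp13a5*, *Col6a6* and *Cuedc1* beside the tested genes of their families. *Atp13a5*, *Col6a6* and *Cuedc1* are below 0 in both genotypes, as are *Atp13a4* and *Col6a5* with wide errors. *Atp13a3*, *Cuedc2*, *Tollip*, *Tab3* and *Smarcad1* are also below 0 in both, none lower than -0.28. Apart from *Atp13a5*, *Col6a6*, *Cuedc1*, *Atp13a4* and *Col6a5*, the genes lie between -0.33 and 0.55.

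The 3 nearest tested genes on each side of each of the 5 gave 30 neighbours. None was called by edgeR with tamoxifen in either genotype, where 6 in WT and 2 in mutants had unadjusted p under 0.05 and DESeq2 called 1 and 0. Of all 15533 tested genes, 1757 in WT and 861 in mutants had edgeR unadjusted p under 0.05. Untreated mutants against WT had 7 neighbours called, 3 of them lower (*Hrasls*, *Opa1*, *Zfp386*), where 30.4% of all tested genes were called. No neighbour of *Col6a6* was called.

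Over the 15 libraries, the genes whose log2 CPM was most like each of the 5 were *Polk* for *Tph1* (r = 0.923), *Gm12199* for *Ighm* (0.954), *Nab1* for *Col6a6* (0.906), *Cuedc1* for *Atp13a5* (0.89) and *Kif3c* for *Cuedc1* (0.902). These values mix group differences with variation within groups. After subtraction of group means they were 0.907 (*Rpgrip1l*), 0.974 (*Plxna3*), 0.88 (*Slc12a8*), 0.92 (*Btbd8*) and 0.939 (*Cacybp*). Each of these r values is the highest over 15533 tested genes in 15 libraries, so it may be overstated by that choice and was not tested. *Atp13a5* and *Cuedc1* had r = 0.89 before and 0.621 after. *C7*, a complement component, was also alike *Atp13a5* (r = 0.856), with means of 2.68, 0.301, 2.06 and 0.923 CPM in WT, WT + TAM, Mtm1-/y and Mtm1-/y + TAM. *Kif3c*, a kinesin motor, averaged 51.3, 30.6, 48.7 and 39.9 CPM in that order.

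The other 15 genes called lower with tamoxifen in WT had a median log2 fold change of -1.1 there. Their median for untreated mutants against WT was -0.82, with 14 of 15 below 0, and for tamoxifen in mutants -0.09, with 9 below 0 and 6 above. For the 5 genes these medians were -2.39, -1.41 and -0.43, with 5, 5 and 3 below 0, where the median of all tested genes was -0.003 to 0.002. Values below 0 with tamoxifen in WT were fixed by the choice of these genes. Untreated mutants against WT share the WT libraries with that choice, which favours values below 0, so these medians and counts are only a description.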

How the data were processed

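The authors deposited raw read counts per Ensembl gene, made from TruSeq stranded mRNA libraries. STAR 2.5.3a, HTSeq 0.6.1p1, Bowtie2 2.2.8 and cutadapt 1.10 appear in the submitters' processing notes, without roles. The sources used here state no strand setting, read filter or annotation release. Of 30672 identifiers, 30672 matched GENCODE M21 for GRCm38.

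Counts were fitted with edgeR 4.0.16 in R 4.3.3: filterByExpr (minimum count 10, 15533 genes), TMM factors and a robust quasi-likelihood model of 4 group means with 11 residual degrees of freedom. SE and 95% intervals came from that fit. CPM was scaled by library size and TMM factor. Log2 CPM had a prior count of 2. A gene was called at a Benjamini-Hochberg adjusted p under 0.05. DESeq2 1.42.0 and limma-voom 3.58.1 were alternatives. The pipeline was tested on simulated data.

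The 5 genes, gene lists and comparisons were chosen with earlier results of these data known. Named genes were the 5, listed genes called in a comparison, called neighbours, and the most alike genes over 15 libraries. Groups came from the labels. p-values measure the spread between these libraries. Libraries of a group differed by more than sampling noise (chi-square per degree of freedom of at least 10.4), so none was counted as a duplicate. The alternatives were other scalings, filters, tests and sample sets, and counts over the lists and neighbours were added after seeing the data.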

Additional observations from a re-analysis of the deposited data

Results flagged for a closer look

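In 15 tests of a group of 4 libraries, 2 had a library far from the other 3, about 1 in 20 being expected by chance. *Atp13a5* in WT replicate 1 measured 34.2 CPM, 0.928 of the group's range away from the nearest other library. *Col6a6* in Mtm1-/y replicate 4 measured 2.67 CPM, with a gap of 0.884 of the range. Each is included in the values of the report, and their cause was not tested.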

How the results depend on the processing

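Of 816 recomputed values, 773 kept their direction and side of the threshold, moved by less than the spread within groups or, for counts, stayed within 1.5 times. *Tph1* in treated against untreated mutants reversed from 0.09 to -0.16 without Mtm1-/y replicate 1 and to -0.17 with both libraries that stood apart left out, and ranged from -0.16 to 0.25 in the fits without a library. *Cuedc1* in the same comparison became called, at -0.54, with both left out. In fits without a library, *Ighm* ran from -2.02 to -0.67 for untreated mutants against WT + TAM, -5.79 to -4.62 for untreated mutants against WT and 0.02 to 1.18 for tamoxifen in mutants, with -2.02, -5.79 and 1.18 all without Mtm1-/y replicate 4. In these fits, the fall in WT was -4.35 to -3.54 for *Ighm*, -2.56 to -2.02 for *Tph1*, -2.73 to -1.93 for *Atp13a5*, -1.55 to -1.17 for *Col6a6* and -0.6 to -0.51 for *Cuedc1*.

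The number of genes called was less stable. For treated against untreated mutants it was 2, against 1 without a filter, 4 with DESeq2, 1 with only the 2 groups, 7 with both libraries left out and 0 to 5 in fits without a library. For WT + TAM against WT it was 48, against 298 with DESeq2, 347 with both left out and 11 to 143 without a library. Mtm1-/y against WT + TAM gave 1965 with only the 2 groups. Fits without a library gave 1656 to 4097 for Mtm1-/y + TAM against WT + TAM and 2188 to 4550 for Mtm1-/y + TAM against WT. Listed genes called in WT + TAM against WT were 0 and became 7 with DESeq2. Neighbours became 1 with DESeq2, 1 with only the 2 groups and 3 with both left out, and 0 to 1 in fits without a library. In Mtm1-/y + TAM against WT + TAM, listed genes were 13 to 32 without a library and 39 with both left out, and neighbours 5 to 10.

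The labels do not say whether replicate numbers pair the samples, and the groups were fitted as unpaired. Over 21 same-numbered pairs, the correlation of deviations was -0.113 to 0.306, with 6 over 0.1. Pairs with different numbers gave -0.338 to 0.214. These overlapping ranges do not decide whether samples were paired. A replicate block gave *Cuedc1* -0.4 and *Atp13a5* -1.61 in treated against untreated mutants (edgeR adjusted p 0.779 for both), and 33 genes called for WT + TAM against WT. The spread between libraries limits the precision of the differences. Within groups the SD of log2 CPM was 1.07 for *Ighm*, 0.64 for *Atp13a5*, 0.53 for *Tph1*, 0.33 for *Col6a6* and 0.15 for *Cuedc1*. The part of low counts in this spread was not tested.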
